A study of Mus musculus with 12 samples.

Results

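The insulin-like growth factor (IGF) axis was followed through 10 genes of the deposited count table: the ligands Igf1 and Igf2, the receptors Igf1r and Igf2r, and the binding proteins Igfbp2, Igfbp3, Igfbp4, Igfbp5, Igfbp6 and Igfbp7. All 10 were found by symbol among 54100 genes. Of them, 8 had enough counts to be tested, as did 8161 genes in all. RNA came from fibro-adipogenic progenitors, Pdgfra-positive mesenchymal cells of skeletal muscle, sorted at 1000 cells per tube from mouse plantaris. Control mice carried the Pdgfra-CreERT2 driver alone, and cdKO mice carried the same driver with floxed Yap1 and floxed Taz, whose gene symbol is Wwtr1. Each genotype was studied after sham surgery and after overload, which gave 4 groups of 3 libraries. The driver and the sort rest on the same gene, Pdgfra, so Cre activity is directed at the cell type that was sorted. The sources used here do not give the age of the mice, how Cre was induced, how long after surgery muscles were taken or whether animals were pooled. Nothing in them says that the libraries of a group came from separate animals, so p-values reflect variation among these tubes, some of which may be technical.

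IGF-1 and IGF-2 are small secreted hormones that act through the receptor tyrosine kinase encoded by Igf1r, which signals to growth through IRS adaptors, PI3-kinase, AKT and mTOR and keeps FOXO transcription factors out of the nucleus. Igf2r encodes a receptor that takes up and clears IGF-2 and carries lysosomal enzymes. The binding proteins hold the ligands outside the cell and set how much reaches the receptor. In skeletal muscle IGF-1 is known as a growth signal for fibres and for muscle stem cells, and interstitial fibroblasts are one of its local sources. YAP and TAZ, the proteins whose genes are floxed in cdKO, are co-activators that bind DNA through TEAD factors.

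Under overload the gene that moved most was Igfbp6, which fell in both genotypes. Igf1r fell in control, whereas the ligand Igf1 and the other binding proteins did not pass the test. In control, 0 of 8 tested members rose, 2 fell and 6 did not pass, against 21.7% of all tested genes called (10.6% higher and 11.0% lower), by the edgeR quasi-likelihood test at an adjusted p under 0.05. In cdKO, 0 rose, 1 fell and 7 did not pass, against 13.0% of all genes (6.37% higher and 6.68% lower). The members' median log2 fold change was -0.14 in control and -0.43 in cdKO, beside -0.05 and -0.02 for all tested genes. Between genotypes, 0 of 8 members passed in sham muscle, in overloaded muscle or in the interaction. Of all genes, 0.0123%, 0.0368% and 0% were called there (0.0123% higher and 0.0245% lower in overloaded muscle). The 1 gene called in sham muscle was Wwtr1, itself floxed in cdKO (log2 fold change -1.74, edgeR adjusted p = 0.00733). Wwtr1 was also 1 of the 3 genes called in overloaded muscle (-2.78, edgeR adjusted p = 1.83e-06). At an unadjusted p under 0.05 by edgeR, 4 members were counted for overload in control (34.6% of all genes) and 3 in cdKO (27.2%), and 1, 2 and 1 in the other comparisons (4.09%, 6.97% and 5.23%).

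**Figure D1:**
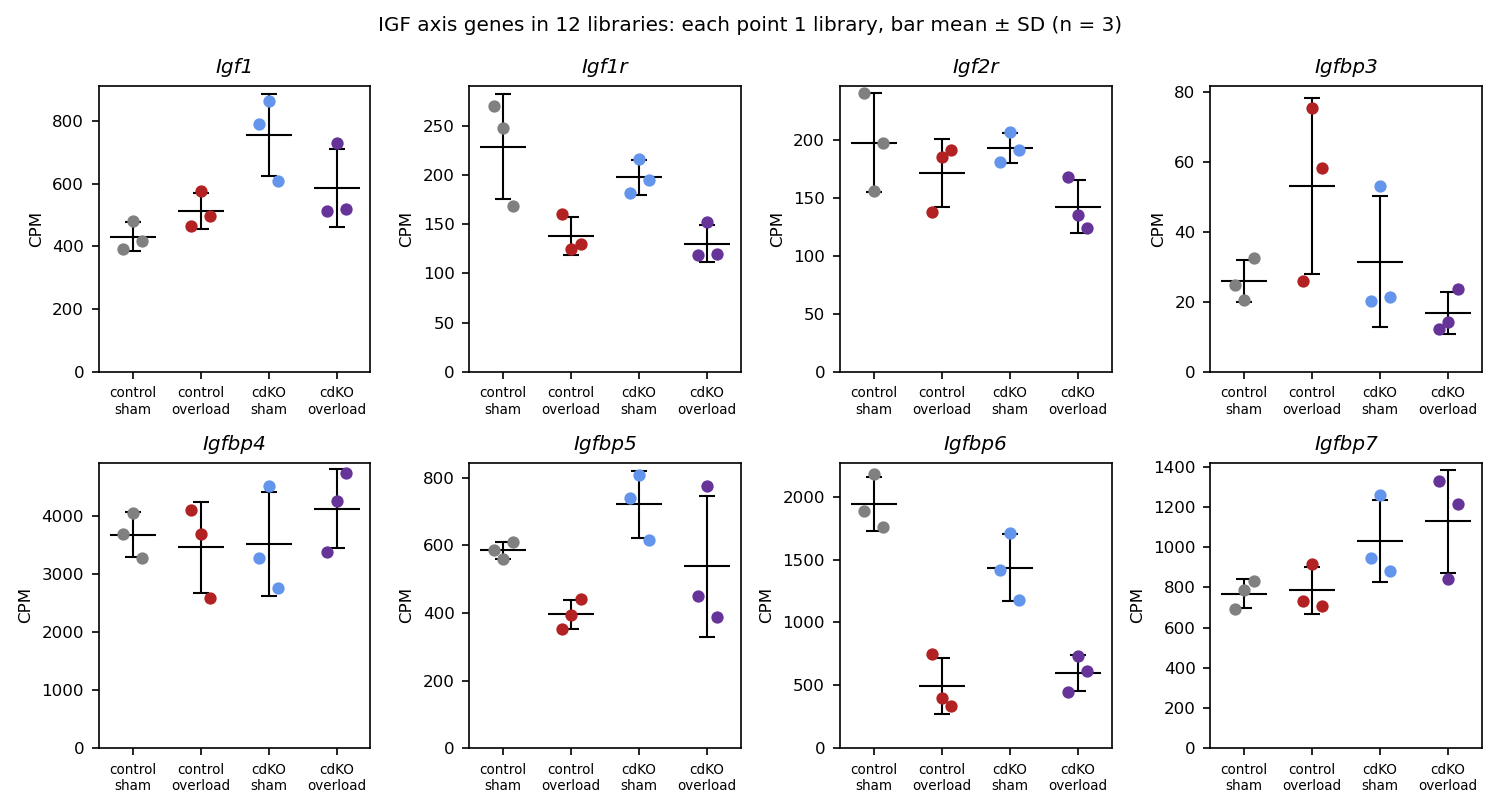
Level in CPM, the count per 1000000 counts of the scaled library size (vertical axes from 0), of the 8 tested genes in each library, by group, with the mean and SD of 3 libraries. All 6 sham libraries lie above all 6 overloaded libraries for Igfbp6, and the control overload libraries are spread from 25.8 to 75.3 CPM for Igfbp3.

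Library totals ran from 336437 to 1564581 counts, so 3 counts, taken as the floor, equal 1.95 to 9.72 CPM. Here CPM is a gene's count per 1000000 counts of the library size as scaled by edgeR. Wwtr1 was at 18.2 to 40.6 CPM in the 6 cdKO libraries and 108 to 174 CPM in the 6 control libraries, whereas those of Yap1 overlapped slightly under overload (cdKO 22.1 to 40.2 CPM, control 39.7 to 91.3 CPM). The genotype difference of Yap1 did not pass in sham or overloaded muscle (edgeR adjusted p = 0.999 and 0.586). The 3′-end counts do not check a deletion outside the counted part, and no protein was measured here. The 4 Y-linked genes read together were lowest in replicates 2 and 3 of control overload, at 64.9 and 68.9 CPM, against 118 to 270.4 CPM in the other 10 libraries, and control sham replicate 3 was the shallowest library. On the first principal component of all tested genes, control overload replicate 1 (15.8) and cdKO overload replicate 2 (7.39) were the overloaded libraries closest to the sham side.

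Markers of the sorted cells and of other cells in muscle were read beside these values. The 10 progenitor markers were counted in every library, with a summed level of 77279 to 95300 CPM in control sham, 51658 to 73805 in control overload, 83561 to 91403 in cdKO sham and 76481 to 84828 in cdKO overload. The list did not move as one under overload. In control 2 of the 10 markers rose and 6 fell (median log2 fold change -0.98), beside 10.6% and 11.0% of all tested genes. In cdKO 2 rose and 5 fell (median -0.80), beside 6.37% and 6.68%. Medians of all tested genes were -0.05 in control and -0.02 in cdKO. The collagen genes Col1a1 and Col3a1 rose in both genotypes, by 1.43 ± 0.26 and 1.53 ± 0.27 in control. Dcn, a matrix proteoglycan, fell from 26249 ± 4695 to 5241 ± 1469.7 CPM in control (-2.32 ± 0.30, edgeR adjusted p = 7.42e-06) and from 21803 ± 5224 to 7771 ± 1693 CPM in cdKO (-1.49 ± 0.29, adjusted p = 0.00154). Pdgfra, the gene used for the sort, fell in cdKO (-1.09 ± 0.26, adjusted p = 0.00620) and was at -0.48 ± 0.26 in control (adjusted p = 0.186). The 8 pericyte and smooth muscle markers summed to 196 to 275 CPM in control sham and 80.6 to 136 in control overload. In cdKO they summed to 191 to 237 CPM in sham and 104 to 117 under overload, so the sum was lower under overload without overlap. Of the 5 that could be tested, 1 was called lower and 4 did not pass in each genotype. Of all tested genes, 11.0% were called lower in control and 6.68% in cdKO. Over all 12 libraries Vtn had 542 counts and Cspg4 473, whereas Mcam, Kcnj8 and Myh11 had 23, 21 and 27. The 8 endothelial markers summed to 129.9 to 225 and 19.5 to 143 CPM in the control groups and to 80.7 to 238 and 37.1 to 70.2 CPM in the cdKO groups. The 8 macrophage and myeloid markers summed to 47.8 to 56.3 and 7.14 to 60.3 CPM in control and to 22.9 to 40.6 and 7.86 to 52.0 CPM in cdKO, sham first. Of these, C1qa had 2 counts and Lyz2 had 6 over all 12 libraries. The 4 tenocyte markers summed to 12.3 to 69.8 and 14.9 to 75.8 CPM in control and to 11.5 to 62.3 and 42.9 to 52.5 CPM in cdKO. The 6 muscle stem cell markers summed to 31.5 to 38.3 and 5.84 to 32.7 CPM in control and to 28.1 to 36.7 and 17.0 to 29.9 CPM in cdKO. The 6 myofibre markers summed to 71.1 to 119 and 12.3 to 81.0 CPM in control and to 55.2 to 139 and 32.6 to 72.6 CPM in cdKO, and the 5 Schwann markers to at most 29.3 CPM in any library. The 4 erythroid markers, all globin genes, summed to 0 to 4.50 CPM in control sham, 12.3 to 281 in control overload, 3.67 to 129.5 in cdKO sham and 0 to 1.12 in cdKO overload. Of the 3 globin genes tested, Hba-a2 was called lower under overload in cdKO (edgeR adjusted p = 0.0347), beside 6.68% of all tested genes. It was at 0 in all 3 overloaded libraries there. The markers named with test values in these sentences were chosen after their values were seen. Between genotypes under overload and in the interaction, 0 of these 3 globin genes passed, beside 0.0368% and 0% of all tested genes. All 3 were under an unadjusted p of 0.05 by edgeR in both, beside 6.97% and 5.23% of all tested genes. None of these markers was at 0 in all 12 libraries. Their part in the results below was not tested.

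Of the ligands, Igf1 (chromosome 10, 87858265 to 87937042, plus strand, GRCm38) was counted in every library, from 129 to 889 counts. In control sham it stood at 392, 481 and 418 CPM (mean 430.3 ± 46.0, SD, n = 3), and in control overload at 465, 577 and 495 CPM (512 ± 57.9). The ranges of these 2 groups overlapped, whereas with CPM taken on the unscaled library totals all 3 overloaded libraries lay above sham. In cdKO sham the 3 values were 790.1, 864 and 609 CPM (754 ± 131), all above the control sham libraries, and in cdKO overload 511, 728 and 519 CPM (586 ± 123). By mean CPM the order of Igf1 was control sham, control overload, cdKO overload and cdKO sham, and neighbours in this order overlapped.

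Overload gave Igf1 a log2 fold change of 0.25 ± 0.24 (SE) in control, with a 95% interval of -0.25 to 0.75 (edgeR adjusted p = 0.488), and of -0.37 ± 0.24 in cdKO, with an interval of -0.86 to 0.13 (adjusted p = 0.346). With Y-linked CPM as a covariate the value in control was -0.04. The interaction was -0.62 ± 0.34 (adjusted p = 0.940). In sham muscle the gene was higher in cdKO by 0.81 ± 0.24, with an interval of 0.31 to 1.31, but it did not pass the test over all genes (edgeR unadjusted p = 0.00275, adjusted p = 0.999). It ranked 17 of 8161 genes by p in that comparison, and its difference lay between 0.70 and 0.93 in 21 alternative settings, 0 of which called it. In overloaded muscle the genotypes differed by 0.19 ± 0.24 (adjusted p = 0.933). The 3 tested genes outside the axis whose log2 CPM followed Igf1 most closely over the 12 libraries were Cpt1a, which carries fatty acids into mitochondria, Mdp1 and Gripap1, with Pearson correlations of 0.87, 0.86 and 0.83.

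Igf2 (chromosome 7, 142650766 to 142666816, minus strand), the fetal ligand, had 3 counts in all, 2 in control sham replicate 3 and 1 in cdKO sham replicate 3, and was not tested. The annotation places a second gene, Gm49394, on the same strand over it, sharing 3596 of the 5723 exon bases of Igf2 (62.8%). That gene is in the count table with 0 counts, and the sources used here do not say how reads shared by 2 genes were counted. Igf2 was therefore not detectable in these counts, which does not show that its RNA was absent. H19, the non-coding RNA next to Igf2 that is expressed from the opposite parental copy, had a mean of 99.4 ± 46.7 CPM in control sham and 166 ± 54.7 under overload, and did not pass (0.79 ± 0.40, adjusted p = 0.167).

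Of the receptors, Igf1r (chromosome 7, 67952827 to 68233668, plus strand) fell under overload in control. Its values were 270.2, 247 and 168 CPM in control sham (229 ± 53.4) and 160.2, 125 and 129.6 CPM in control overload (138 ± 19.3). The lowest sham library lay just above the highest overloaded library, and with CPM taken on the unscaled library totals the ranges overlapped. The log2 fold change was -0.75 ± 0.24, a 1.68-fold lower level (adjusted p = 0.0241). In cdKO the values were 181, 217 and 195 CPM in sham and 119, 152 and 120.1 CPM under overload (198 ± 17.7 and 130.4 ± 18.8), without overlap, and the change of -0.60 ± 0.24 did not pass (adjusted p = 0.0906). The interaction for Igf1r was 0.14 ± 0.33, with an interval of -0.54 to 0.83 (adjusted p = 0.987), so the 2 genotypes were not shown to differ in their response. The call in control was lost without control sham replicate 1 (adjusted p = 0.133), control sham replicate 2 (0.111), control overload replicate 2 (0.1399) or control overload replicate 3 (0.0998). It was also lost with the Y-linked covariate (0.152), without the deepest and shallowest library (0.0865), with thinned counts (0.0974) and without a filter (0.414). In all, the call held in 13 of 21 alternatives.

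Igf2r (chromosome 17, 12682406 to 12769664, minus strand) stood at 241, 156 and 198 CPM in control sham and 138, 186 and 191 CPM in control overload, which overlapped. In cdKO it was at 181, 207 and 191 CPM in sham and at 168, 135 and 125 CPM under overload, which did not. Overload changes were -0.19 ± 0.24 in control and -0.44 ± 0.24 in cdKO, and neither passed (adjusted p = 0.597 and 0.232). Airn, a non-coding RNA read from the opposite strand, starts within Igf2r and extends beyond it (12741311 to 12860136). It had 184 counts against 1533 for Igf2r and shares no exon with it. The sources used here do not state the strand setting. Genotype differences in Igf2r were -0.02 ± 0.24 in sham and -0.28 ± 0.23 in overloaded muscle.

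Igfbp6 (chromosome 15, 102144362 to 102149511, plus strand) encodes the binding protein with a known preference for IGF-2. Its control sham values were 1883, 2176 and 1759 CPM (1939 ± 214), and control overload gave 753, 399.8 and 339 CPM (497 ± 224). The cdKO values were 1415, 1709.7 and 1177 CPM in sham (1434 ± 267) and 447, 736 and 617 CPM under overload (599.9 ± 145). The lowest of the 6 sham libraries (1177 CPM) lay well above the highest of the 6 overloaded libraries (753 CPM). The fall was -1.97 ± 0.30 in control, 3.92-fold (adjusted p = 3.64e-05), and -1.26 ± 0.29 in cdKO, 2.39-fold (adjusted p = 0.00531). Of all tested genes, 5.64% had a larger absolute change in control and 10.4% in cdKO, and 5.00% were called lower in both genotypes (4.66% higher in both). The pericyte and smooth muscle sum and several progenitor markers, Dcn among them, were also lower under overload in both genotypes. The progenitor markers Col1a1 and Col3a1 rose in both. In each genotype, 4 of the 5 tested pericyte and smooth muscle markers did not pass. The part of these markers in the fall was not tested. In bulk samples, fewer cells that express a gene and less RNA per cell cannot be told apart.

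The fall of Igfbp6 in control kept its call in 21 of 21 alternatives, between -2.34 and -1.73. In cdKO it did so in 20 of 21, and without cdKO overload replicate 1 it was -1.08 (adjusted p = 0.0506). The interaction was 0.71 ± 0.40, with an interval of -0.12 to 1.55 (adjusted p = 0.940). In sham muscle all 3 cdKO libraries lay below the control libraries (-0.44 ± 0.28, adjusted p = 0.999), while under overload the genotypes overlapped (0.28 ± 0.29, adjusted p = 0.917). The first principal component was taken over all tested genes, Igfbp6 included, and sham and overloaded libraries lay apart on it. Among overloaded libraries, the 2 closest to its sham side also had the highest Igfbp6, at 753 and 736 CPM. Since Igfbp6 is part of the component and both follow load, this is a description and no separate support. The genes most like Igfbp6 over the 12 libraries were the stress-induced transcription factor Atf3, the metalloproteinase inhibitor Timp2 and the glutathione transferase Gstm1, each with a Pearson correlation of 0.99 across points that share the division by load. Igf1r correlated with Igfbp6 at 0.90 over these libraries.

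**Figure D2:**
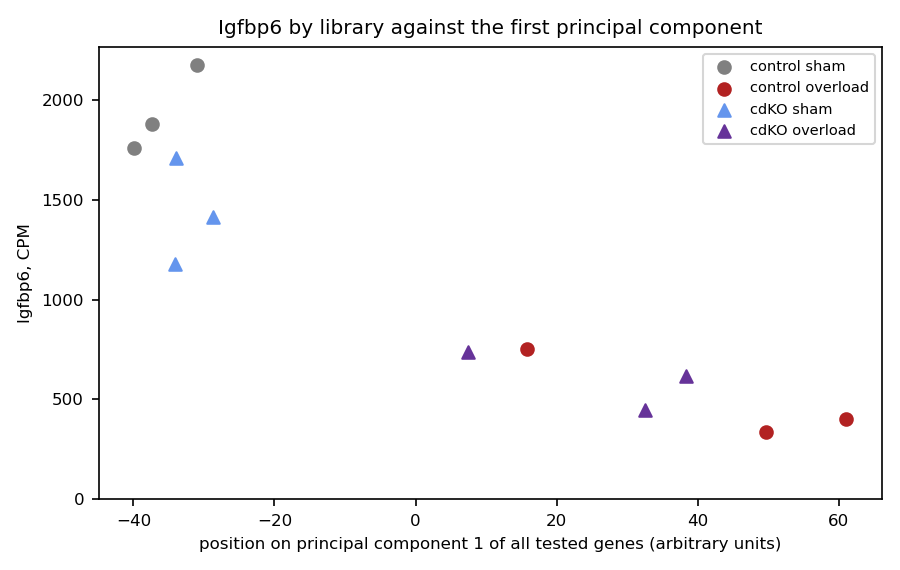
Igfbp6 level (CPM, vertical axis from 0) against the position of each library on the first principal component of all tested genes (horizontal axis, arbitrary units). The 6 sham libraries lie on the left at 1177 to 2176 CPM and the 6 overloaded libraries on the right at 339 to 753 CPM. Igfbp6 is among the genes of the component, which itself separates the loads.

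Igfbp3 (chromosome 11, 7206086 to 7213923, minus strand), whose product is the main carrier of IGFs in blood, was the thinnest of the tested members, with 8 to 116 counts per library. In control sham it stood at 24.8, 20.5 and 32.4 CPM (25.9 ± 6.02) and in control overload at 25.8, 75.3 and 58.4 CPM (53.2 ± 25.1). In control overload, replicate 1 lay within the sham range and the other 2 libraries above it. The cdKO values were 20.2, 53.1 and 21.3 CPM in sham (31.5 ± 18.7) and 12.4, 14.3 and 23.6 CPM under overload (16.7 ± 5.99), so a single sham library stood above the rest. Overload gave 1.14 ± 0.42 in control (adjusted p = 0.0542) and -0.96 ± 0.44 in cdKO (adjusted p = 0.152), and neither passed.

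All 3 cdKO overload libraries were below all 3 control overload libraries for Igfbp3. The difference was -1.68 ± 0.41, with an interval of -2.53 to -0.84, and it ranked 10 of 8161 genes by p (edgeR unadjusted p = 3.89e-04), but it did not pass over all genes (adjusted p = 0.294). The interaction was -2.10 ± 0.61 (edgeR unadjusted p = 0.00199, adjusted p = 0.582). The 2 control libraries with high Igfbp3 are the 2 with low Y-linked counts, and their summed endothelial markers were also the lowest of the 12 libraries (19.5 and 36.2 CPM). With Y-linked CPM as a covariate the overload change in control was -0.11 (adjusted p = 0.943), the genotype difference under overload -0.36 (adjusted p = 0.981) and the interaction -0.37. Because the 2 low libraries are both in control overload, the covariate and that group cannot be fully told apart. Without control overload replicate 1 the genotype difference was -2.03 (adjusted p = 0.00900) and the overload change 1.49 (adjusted p = 0.00552). The overload change in control passed in 10 of 21 alternatives and the genotype difference in 2.

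**Figure D3:**
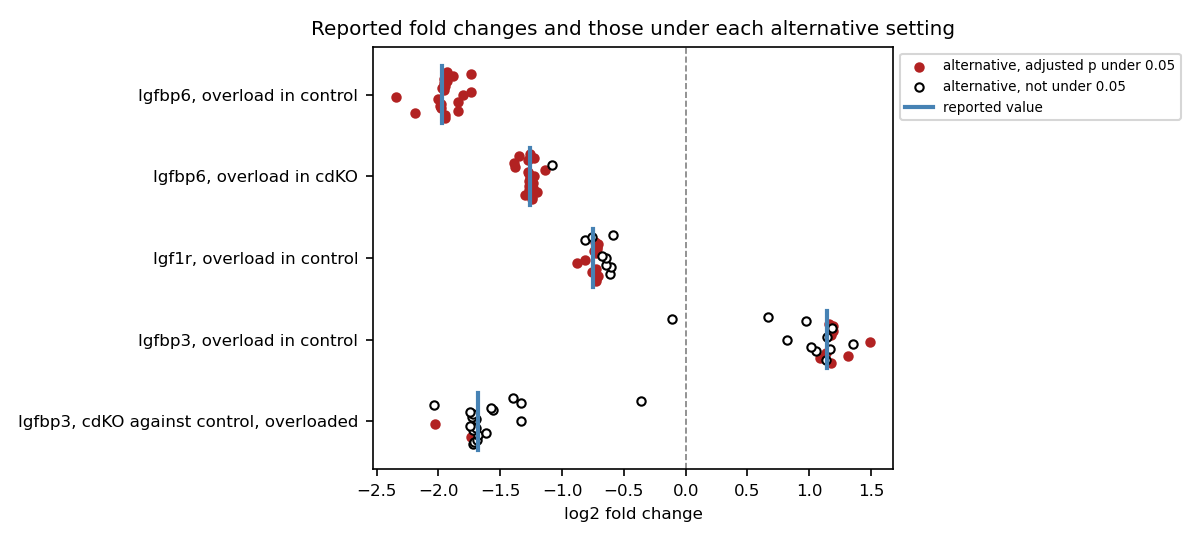
Log2 fold changes (horizontal axis) of Igfbp6, Igf1r and Igfbp3 as reported (blue bars) and in each alternative setting (points, filled where the adjusted p was under 0.05). Igfbp6 stays between -2.34 and -1.73 in control, whereas Igfbp3 ranges from -0.11 to 1.49 for overload in control.

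The promoters of these 3 genes are shown because, among the 8 tested members, they had the largest overload changes in control and, for Igfbp3, the largest genotype difference. Sequences are the 250 bases before the RefSeq start site (GRCm38.p6), 5′ to 3′ on the gene's strand, and capitals mark GC boxes (GGGCGG or its reverse complement CCGCCC, where factors of the SP family bind).
Igfbp6, chr15:102143936-102144185, plus strand: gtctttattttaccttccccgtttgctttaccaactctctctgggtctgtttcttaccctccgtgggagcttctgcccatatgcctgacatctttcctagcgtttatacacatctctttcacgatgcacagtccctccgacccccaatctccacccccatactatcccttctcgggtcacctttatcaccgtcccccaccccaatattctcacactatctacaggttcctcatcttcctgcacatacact
Igf1r, chr7:67952007-67952256, plus strand: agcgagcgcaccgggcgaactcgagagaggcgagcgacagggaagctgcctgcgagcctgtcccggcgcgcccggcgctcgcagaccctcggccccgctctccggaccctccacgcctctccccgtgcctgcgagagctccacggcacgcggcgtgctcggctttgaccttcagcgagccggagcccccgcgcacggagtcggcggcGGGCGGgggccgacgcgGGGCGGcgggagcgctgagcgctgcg
Igfbp3, chr11:7213924-7214173, minus strand: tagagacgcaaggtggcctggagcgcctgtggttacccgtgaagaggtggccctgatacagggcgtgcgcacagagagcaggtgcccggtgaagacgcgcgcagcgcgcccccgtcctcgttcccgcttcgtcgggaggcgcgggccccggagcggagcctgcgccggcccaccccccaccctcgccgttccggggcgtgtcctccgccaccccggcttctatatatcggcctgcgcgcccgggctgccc
The Igf1r window was 77.6% G or C with 2 GC boxes, at 43 and 26 bases before the start. The Igfbp3 window was 73.2% and the Igfbp6 window 49.6% G or C, with no such box in either. Across the 14 start sites that RefSeq gives for the 10 members, 6 windows held a GC box, against 32.7% of all 32851 promoter windows. The TEAD motif GGAATG (reverse complement CATTCC) was in 4 of 14 windows, 3 of Igf2 and 1 of Igfbp5, against 12.6% of all. The AP-1 motif TGANTCA, which is its own reverse complement, was in 2 of 14, 1 each of Igf1 and Igfbp2, against 6.75%. None of the 3 windows shown held a TEAD or AP-1 match on either strand. These matches describe letters and not bound sites.

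Igfbp5 (chromosome 1, 72857932 to 72874884, minus strand), a matrix-bound binding protein, had 586, 561 and 609 CPM in the control sham libraries (585 ± 24.3) and 353, 394 and 440.1 CPM under overload (396 ± 43.5). These groups did not overlap, but the change of -0.56 ± 0.26 did not pass (adjusted p = 0.123). In cdKO it was at 741, 809 and 615 CPM in sham and at 451, 776 and 387 CPM under overload, with replicate 2 of the overloaded group inside the sham range (-0.42 ± 0.26, adjusted p = 0.301). Between genotypes it differed by 0.30 ± 0.26 in sham and 0.44 ± 0.26 in overloaded muscle, and neither difference passed.

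Igfbp4 (chromosome 11, 99041244 to 99054392, plus strand), whose product restrains IGF action until it is cut by the protease PAPP-A, had 1015 to 5679 counts per library. It ranged from 3288 to 4063 CPM in control sham, 2597 to 4104 in control overload, 2766 to 4519.8 in cdKO sham and 3388 to 4739 in cdKO overload, so all 4 ranges overlapped. Overload changed it by -0.09 ± 0.27 in control, with an interval of -0.64 to 0.46, and by 0.23 ± 0.27 in cdKO, with an interval of -0.32 to 0.78 (adjusted p = 0.841 and 0.640). The genotypes differed by -0.06 ± 0.27 in sham and 0.25 ± 0.27 in overloaded muscle. The genes most like Igfbp4 over the 12 libraries were Thap1, Ifitm2 and Pdp1, with Pearson correlations of 0.90, 0.84 and 0.79.

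Igfbp7 (chromosome 5, 77349240 to 77408041, minus strand), a related protein that binds IGFs weakly, had 691, 787 and 829 CPM in the control sham libraries (769 ± 70.7) and 731, 918 and 707 CPM in control overload (785 ± 115). In cdKO it was at 946, 1261 and 881 CPM in sham (1029 ± 203) and 1330.2, 841 and 1216 CPM under overload (1129 ± 256). All 3 cdKO sham libraries lay above control sham, by 0.42 ± 0.25 (adjusted p = 0.999), and under overload the difference was 0.52 ± 0.25, with 1 cdKO library inside the control range (adjusted p = 0.703). Overload changed Igfbp7 by 0.03 ± 0.25 in control and 0.13 ± 0.25 in cdKO, and neither passed. Its last 85 exon bases overlap Polr2b on the opposite strand, which had 211 counts. Igfbp2 (chromosome 1, 72824503 to 72852474, plus strand) had 4 counts in 3 libraries, at most 2 in each, and was not tested.

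**Figure D4:**
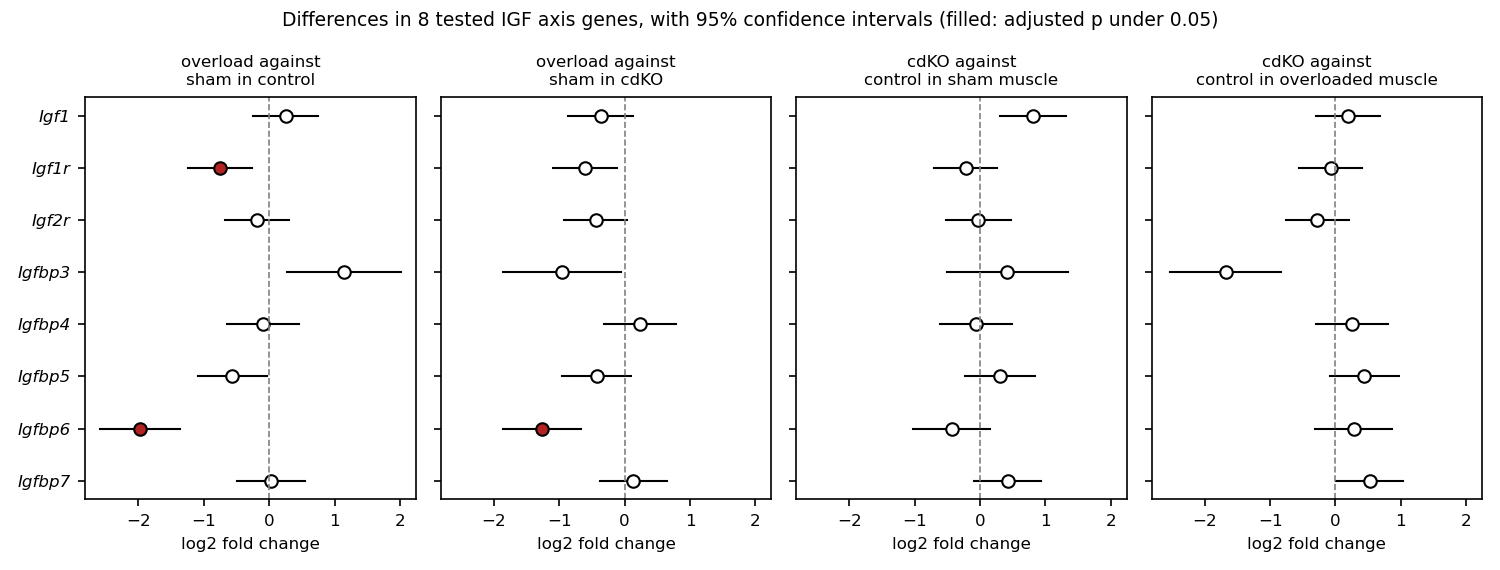
Log2 fold changes (horizontal axes) of the 8 tested genes in 4 comparisons, with 95% confidence intervals as lines and filled points where the adjusted p was under 0.05. Igfbp6 under overload in both genotypes and Igf1r under overload in control are filled.

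Groups that did not overlap were counted for each comparison. For overload, 3 of 8 members stood apart in control (Igf1r, Igfbp5 and Igfbp6) and 3 in cdKO (Igf1r, Igf2r and Igfbp6), all of them lower, beside 36.9% and 30.0% of all tested genes (18.9% and 14.7% lower, 18.0% and 15.4% higher). On unscaled library totals the 3 in control were Igfbp5 and Igfbp6, which were lower, and Igf1, which was higher, and the 3 in cdKO were as above. For cdKO against control in sham muscle, 4 of 8 stood apart (Igf1, Igfbp5 and Igfbp7 higher and Igfbp6 lower), beside 9.89% of all genes (5.44% higher, 4.45% lower), or 3 of 8 on unscaled library totals. In overloaded muscle 1 of 8 did, Igfbp3, which was lower, beside 10.7% of all genes (5.38% higher, 5.31% lower). None of the genotype differences passed the test over all genes, and these genes come from the same libraries.

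Other genes of the axis were read from 3 lists. In the list of IGF availability and related receptors, 5 of 14 genes could be tested. In control 0 rose, 2 fell and 3 did not pass under overload, and in cdKO all 5 did not pass, beside 21.7% and 13.0% of all tested genes called. The list medians were -0.23 and -0.27, beside -0.05 and -0.02 for all tested genes. The genes that fell were Htra1, a secreted protease that cuts binding proteins (224 ± 99.7 to 62.8 ± 47.1 CPM, -1.95 ± 0.46, adjusted p = 0.00726), and Insr, the insulin receptor (31.2 ± 3.39 to 13.7 ± 7.84 CPM, -1.29 ± 0.43, adjusted p = 0.0330). In cdKO the values were -1.17 ± 0.44 for Htra1 and -0.33 ± 0.43 for Insr (adjusted p = 0.0978 and 0.683). The calls held in 20 of 21 settings for Htra1 and in 11 of 20 for Insr.

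Pappa, the gene of PAPP-A, did not differ with load beyond its error in either genotype (-0.03 ± 0.25 and -0.04 ± 0.23). Control libraries ranged from 61.6 to 79.3 CPM in sham and from 65.6 to 74.1 under overload, and cdKO libraries from 101 to 131 CPM and from 98.8 to 126. All 6 cdKO libraries were therefore above all 6 control libraries. Genotypes stood apart for 9.89% of all tested genes in sham and 10.7% in overloaded muscle. The share that did so over both loads together was not counted. The genotype difference was 0.66 ± 0.25 in sham and 0.64 ± 0.23 in overloaded muscle, and neither passed over all genes (edgeR unadjusted p = 0.0134 and 0.0111, adjusted p = 0.999 and 0.581).

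For receptor signalling, 26 of 34 genes could be tested. Under overload 2 rose, 4 fell and 20 did not pass in control, and 1 rose, 3 fell and 22 did not pass in cdKO, beside 21.7% and 13.0% of all tested genes called. The list medians were -0.12 and -0.35, beside -0.05 and -0.02 for all tested genes. Eif4ebp1, a translation repressor that mTOR inactivates, rose from 14.6 ± 4.36 to 46.2 ± 14.7 CPM in control (1.76 ± 0.41, adjusted p = 0.00299) and from 11.5 ± 5.97 to 29.7 ± 4.68 CPM in cdKO (1.25 ± 0.41, adjusted p = 0.0432). Rheb, the GTPase that activates mTOR, rose in control (0.81 ± 0.26, adjusted p = 0.0257) and was at 0.39 ± 0.25 in cdKO (adjusted p = 0.340).

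The FOXO genes Foxo1 and Foxo3, whose proteins are held inactive by AKT, fell in both genotypes. Foxo1 went from 81.6 ± 12.9 to 28.5 ± 8.32 CPM in control (-1.56 ± 0.30, adjusted p = 5.24e-04) and from 105 ± 14.8 to 43.4 ± 11.97 CPM in cdKO (-1.28 ± 0.28, adjusted p = 0.00314). Foxo3 fell by 0.90 ± 0.30 on the log2 scale in control (adjusted p = 0.0327) and by 1.72 ± 0.29 in cdKO (adjusted p = 3.78e-04). The adaptor gene Irs2 (-1.002 ± 0.33) and the kinase gene Gsk3a (-0.93 ± 0.27) fell in control, at adjusted p = 0.0313 and 0.0161. Their changes of -0.93 ± 0.32 and -0.59 ± 0.27 in cdKO did not pass. Pik3r1, a regulatory subunit of PI3-kinase, fell in cdKO (-1.83 ± 0.49, adjusted p = 0.0235) and was at -1.41 ± 0.51 in control (adjusted p = 0.0632). Akt1 did not pass, at 0.34 ± 0.27 in control and 0.47 ± 0.26 in cdKO.

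In the settings tried, the Foxo1 call held in 21 of 21 in each genotype, and that of Foxo3 in 12 of 21 in control and 21 of 21 in cdKO. The Eif4ebp1 call held in 20 of 21 in control, failing with the Y-linked covariate (1.01, adjusted p = 0.289), and in 10 of 21 in cdKO. For Rheb, Irs2 and Gsk3a in control it held in 16, 13 and 13 of 21, and for Pik3r1 in cdKO in 18 of 21.

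Growth hormone drives Igf1 through its receptor, JAK2 and STAT5. All 6 genes of this list could be tested. Under overload 0 rose, 1 fell and 5 did not pass in control, and 1 rose, 1 fell and 4 did not pass in cdKO, beside 21.7% and 13.0% of all tested genes called. The list medians were -0.91 and -1.02, beside -0.05 and -0.02. Ghr, the growth hormone receptor, went from 74.2 ± 5.36 to 35.7 ± 11.5 CPM in control (-1.10 ± 0.30, adjusted p = 0.00926) and from 74.0 ± 18.3 to 38.3 ± 6.97 CPM in cdKO (-0.98 ± 0.29, adjusted p = 0.0261), without overlap in either. Its call held in 15 of 21 settings in each genotype. Socs2, a feedback inhibitor of this receptor, rose in cdKO (0.86 ± 0.26, adjusted p = 0.0291) and was at 0.62 ± 0.27 in control (adjusted p = 0.0958). The Socs2 call in cdKO held in 14 of 21 settings. Jak2 did not pass (-0.03 ± 0.30 and -0.40 ± 0.30), and neither did Cish (-1.63 ± 0.80 and -2.12 ± 0.84). In all 3 lists, 0 genes passed between genotypes or in the interaction.

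**Figure D5:**
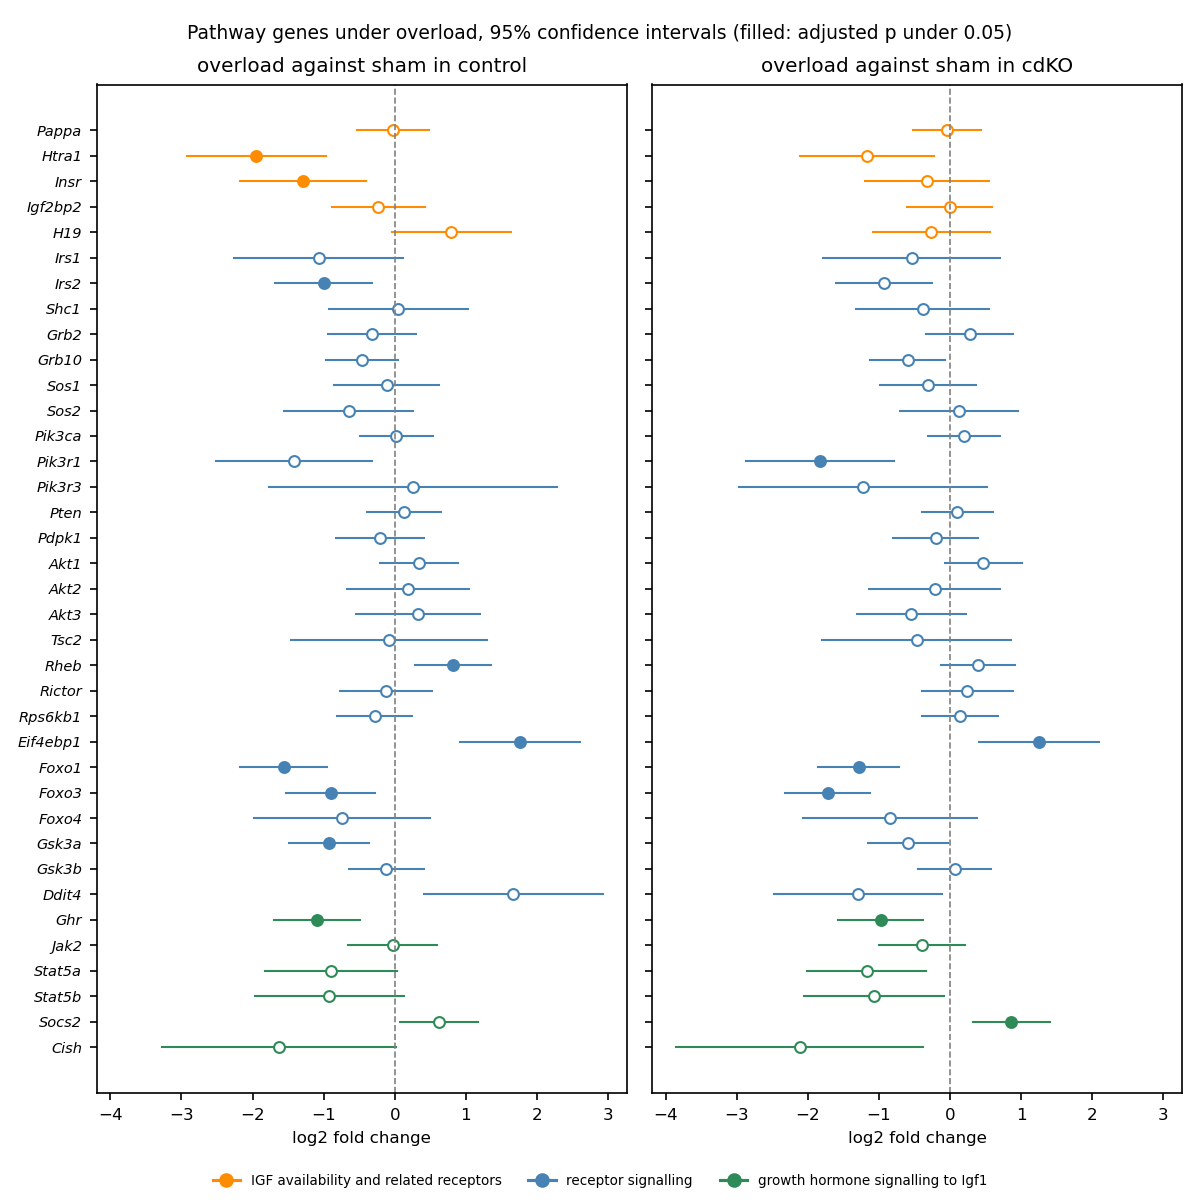
Log2 fold changes under overload (horizontal axes) of the 37 tested pathway genes in control and in cdKO, with 95% confidence intervals, coloured by list and filled where the adjusted p was under 0.05. Foxo1, Foxo3, Ghr and Eif4ebp1 are filled in both panels.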

How the data were processed

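RNA was measured in 12 libraries. The authors deposited raw counts per gene, which are whole numbers. Per the submitters' processing notes, processing by the authors involved DESeq2 1.26.0, featureCounts 2.0.1, HISAT2 2.2.1 and Trim Galore 0.6.6, with GRCm38. The labels' protocol cites a low-input method (CEL-Seq2) that counts 3′ ends. The sources used here do not give the annotation release, strand setting or use of molecular identifiers, so floors cover counting error only.

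Members were matched by symbol and placed with GENCODE M21 (GRCm38). All 10 had RefSeq promoters. Tests used edgeR 4.0.16 in R 4.3.3: filterByExpr, TMM factors, and 1 robust quasi-likelihood fit with a mean per group over 12 libraries, Benjamini-Hochberg adjusted over 8161 genes, two-sided. The standard error is the absolute log2 fold change over the square root of F, and the prior count was 0.125 for fold changes and 2 for log2 CPM. The fit was run on simulated counts with known changes and no outlying libraries. That run does not show how the fit behaves with replicates as uneven as these. No libraries of a group were duplicates (chi-square of 3.39 to 23.4 for each degree of freedom).

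The members and lists were chosen with earlier results of these data known. Named genes were all members, up to 6 called genes per list with the smallest p, up to 2 others per list by role, and the 3 genes most correlated with Igf1 and with the 2 members of highest mean CPM, leaving out predicted genes and pseudogenes. Alternatives were DESeq2 1.42.0, limma 3.58.1 voom, other size factors, no filter, only the groups compared, a replicate block, each library left out, both extremes of depth (control sham replicate 3 and control overload replicate 2) left out, and a Y-linked covariate. Chosen after seeing values were the thinning to the smallest library, the CPM scale, the fold-change prior count, the GC box motif and the promoters shown.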

Additional observations from a re-analysis of the deposited data

How the results depend on the processing

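Of 832 alternative values for single members, 811 stayed on the same side of the threshold, 12 moved past it and 9 fell short. Of these values, 31 changed sign, in 12 of 40 member results, and 0 of them were called. For overload in control these were Igf1 (-0.04 to 0.41), Igfbp3 (-0.11 to 1.49), Igfbp4 (-0.23 to 0.11) and Igfbp7 (-0.06 to 0.20), and the others were Igf2r, Igfbp3 and Igfbp4 between genotypes in sham muscle, Igf2r in overloaded muscle, and Igf1r, Igf2r, Igfbp5 and Igfbp7 in the interaction. For overload in control the main fit called 1768 genes and 2 members. With the deepest and the shallowest library both left out, the result was 712 genes and 1 member, the Y-linked covariate 622 and 1, and thinned counts 1 member. Leaving out each library gave 1060 to 2508 genes, the fewest without control overload replicate 2, and 1 to 3 members. For overload in cdKO, 1065 genes and 1 member were called, with 702 genes without a filter, and leaving out each library gave 423 (without cdKO overload replicate 3) to 1287 genes and 0 to 1 members. For cdKO against control in sham muscle, 1 gene was called, and 2 were by DESeq2, by limma voom and with only the groups compared, against 0 without the deepest and shallowest library and 0 to 1 with each library left out. In overloaded muscle 3 genes were called, 17 without a filter (with 1 member, Igfbp3) and 1 with only the groups compared, and leaving out each library gave 1 to 34 genes and 0 to 1 members. The interaction called 0 genes, 1 by DESeq2 and 10 without a filter, and 0 to 1 with each library left out. The cause was not tested. Taken gene by gene, the median difference from the main fit was up to 0.03 on the log2 scale with DESeq2 size factors. Without a filter it was 0.15 for overload in control. The median of all genes in that comparison was -0.01 without a filter and -0.05 in the main fit. The labels do not say whether a replicate number marks a shared animal or day. Over 18 same-numbered pairs the correlation of deviations ran from -0.23 to 0.27, and 5 of 12 libraries correlated best with their own number. Most of these pairs join libraries of different genotypes, so they cannot exclude pairing within a genotype. With the replicate block, the counts of members called stayed at 2 and 1 for overload, with Igfbp6 at -1.99 in control (adjusted p = 4.55e-05) and -1.24 in cdKO (adjusted p = 0.00706). Low counts limit what can be said of Igfbp2 and Igfbp3, and also of Igf2, where the part of the shared exons was not tested.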

Other observations

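Ddit4, which encodes an inhibitor of mTOR signalling, was singled out after its values were seen. Its overload change was 1.67 ± 0.60 in control and -1.29 ± 0.56 in cdKO (edgeR adjusted p = 0.0549 and 0.142), and neither passed. In control it went from 13.3 ± 12.5 CPM in sham to 45.6 ± 27.99 CPM under overload, and in cdKO from 37.7 ± 18.96 to 15.6 ± 5.005 CPM (SD, n = 3), with 0 to 65 counts per library. The interaction of -2.96 ± 0.82 did not pass over all genes (edgeR unadjusted p = 0.00214, adjusted p = 0.582), and 1 of 20 alternatives called it, the fit without a filter on low counts (adjusted p = 0.00321).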
